A study of Mus musculus with 22 samples.

Results

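The genes described here are 34 genes of the cardiac sarcomere and Z-disc, measured in whole hearts of mice that had received nanosized titanium dioxide (nano-TiO2) or vehicle through the trachea. They were chosen by name, with earlier results of these data known. A name was matched to the array through the RefSeq accession of its probes, and the brightest probe that was well above background represented the gene. In this way 29 of the 34 genes were measured, with 51 probes, among 15502 genes in all. Mylk3, Flnc, Xirp1, Smpx and Trim63 were matched to no probe and were not analysed here.

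Hearts came from 22 female C57BL/6 mice, bought at 5 to 7 weeks of age and acclimatized for 1 to 3 weeks. Each mouse received a single 40 µl instillation under anaesthesia. The nano-TiO2 groups received 162 µg of particles suspended in saline with cell-free lavage fluid, and the control groups received that liquid without particles. Hearts were taken 1 or 28 days later, so that day 1 had 5 mice of either treatment and day 28 had 6 of either treatment. Day 28 mice were also older at sampling, so time since instillation and age cannot be told apart. Each mouse was hybridised on its own array, its heart RNA in Cy5 against a common Universal Mouse Reference RNA in Cy3, without dye swap. All values below are log2 ratios of heart to reference, or differences between such ratios. The label on RNA extraction names lung while the tissue label names heart; 28 of the 29 members were well above background in Cy5 on all 22 arrays.

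The sarcomere is the contractile unit of striated muscle. Thin filaments of actin, tropomyosin and troponin slide along thick filaments of myosin, while titin spans from the Z-disc, where thin filaments are anchored, to the M-band, where thick filaments are linked. Calcium binding to troponin C in the thin filament permits contraction, and Z-disc, intermediate filament and costamere proteins carry force between neighbouring units and to the cell membrane. In heart muscle most of these transcripts are abundant, and several are used as marks of cardiomyocyte identity.

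Promoter sequence is given as a description of the members, and its part in the differences below was not tested. Of the 29 measured members, 24 had a promoter in the RefSeq table (build GRCm38.p6), with 36 start sites, and the 250 bases before each start were searched for 6 motifs. A CArG box, the element bound by serum response factor, was found on either strand in 6 of these 24 members (25%), namely Actc1, Myl3, Myom1, Ldb3, Nebl and Fhl2, and in 1.62% of all 27025 genes with such windows. Counted by windows, the shares were 22.2% of the 36 member windows and 1.47% of all windows. A MEF2 element, searched on both strands, was found in 6 members (Mybpc3, Ttn, Myoz2, Fhl2, Synpo2l and Xirp2; 25%) and in 3.42% of all genes. The M-CAT element CATTCC, bound by TEAD factors and searched on both strands, was found in 6 members (25%) and in 14.4% of all genes. The E-box CANNTG on both strands was in 87.5% of members and 69.3% of all genes, the GATA element AGATAA on both strands in 20.8% and 11.4%, and the TATA box TATAAA on the gene's strand in 0% and 8.94%. No match overlapped a match of another of these motifs in the member windows. A match is a description of letters, not of binding. The 4 stretches below were chosen to show a CArG box, a MEF2 element and an M-CAT element in Actc1, which did not pass the test described below, and in Myl3, Mybpc3 and Tnnt2, which did. They run 5′ to 3′ on the gene's strand, end before the annotated gene and have the match in capitals. Actc1 is shown from chr2:114052876-114053125 (minus strand; CArG box starting 47 bases before the start site), Myl3 from chr9:110763428-110763677 (plus strand; CArG box, 85 bases), Mybpc3 from chr2:91117894-91118113 (plus strand; MEF2 element, 90 bases) and Tnnt2 from chr1:135836084-135836314 (plus strand; M-CAT element, 27 bases).
Actc1: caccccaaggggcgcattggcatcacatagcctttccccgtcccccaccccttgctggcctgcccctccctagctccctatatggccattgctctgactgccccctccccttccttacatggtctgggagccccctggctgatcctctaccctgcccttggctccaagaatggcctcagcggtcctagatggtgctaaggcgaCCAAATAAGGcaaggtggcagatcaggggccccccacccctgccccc
Myl3: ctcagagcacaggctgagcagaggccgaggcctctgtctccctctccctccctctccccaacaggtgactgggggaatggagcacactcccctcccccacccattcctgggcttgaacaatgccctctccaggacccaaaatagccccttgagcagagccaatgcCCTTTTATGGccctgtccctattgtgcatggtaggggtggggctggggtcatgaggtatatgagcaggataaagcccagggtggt
Mybpc3: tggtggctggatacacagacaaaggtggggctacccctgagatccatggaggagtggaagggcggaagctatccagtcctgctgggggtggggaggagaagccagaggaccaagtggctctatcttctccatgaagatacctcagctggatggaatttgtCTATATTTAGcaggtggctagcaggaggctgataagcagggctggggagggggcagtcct
Tnnt2: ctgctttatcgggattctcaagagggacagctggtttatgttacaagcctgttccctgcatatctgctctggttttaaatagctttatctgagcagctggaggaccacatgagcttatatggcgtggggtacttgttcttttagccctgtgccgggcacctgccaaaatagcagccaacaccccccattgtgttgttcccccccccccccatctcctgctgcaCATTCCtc

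Some arrays stood apart in their marker levels, by cuts set after the data were seen. The heart channel was well above background for 32.7% to 52.8% of probes per array, and 0 spots were saturated. On 3 arrays (control day 1 replicate 2, nano-TiO2 day 1 replicate 1 and nano-TiO2 day 28 replicate 1) the mean of 11 atrial markers was between -2.48 and -2.41 log2 units relative to the average of all arrays. On 5 others (control day 28 replicates 1, 3, 4 and 5 and nano-TiO2 day 1 replicate 2) the mean of the lung epithelium or liver markers lay more than 0.9 above that average. These are called the arrays with, or holding, lung or liver transcripts below, though other arrays held some of these transcripts too. Only control day 28 replicates 1 and 5 were above 0.9 in lung markers, and replicate 3 was near the cut in liver markers (0.98). Beside the values from all arrays, those without the 3 and without the 5 arrays are given in each comparison. In whole-heart RNA, fewer cardiomyocytes and less RNA per cardiomyocyte cannot be told apart.

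Averaged over all arrays, 28 of the 29 members lay above the reference, each compared with its own reference signal. The exception was Plec. For 25 members the reference was well above background on all 22 arrays. It was so on 0 arrays for Lmod2 and Myot, on 4 for Nebl and on 5 for Synpo2l, so the ratios of these 4 depend on the background correction. Synpo2l was also the only member not well above background in the heart channel throughout (9 of 22 arrays). The spread between mice within groups, as a residual SD, ran from 0.14 to 0.55 among members with a median of 0.22, against a median of 0.17 over all genes.

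Nano-TiO2 changed no member past the threshold, an adjusted p under 0.05 by limma over all 15502 genes. Members were instead lower at day 28 than at day 1 in control mice: 10 of 29 fell (Plec, Mybpc3, Fhl2, Actn2, Tpm1, Tnni3, Myl3, Csrp3, Tnnt2 and Des) and none rose. Over all genes 3.46% fell and 10.4% changed in either direction. By the difference alone, 26 of 29 members were lower, with a median of -0.37 against -0.0033 over all genes. In nano-TiO2 mice 22 of 29 were lower at day 28 than at day 1, with a median of -0.10, and none passed (0% of all genes did).

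**Figure D1:**
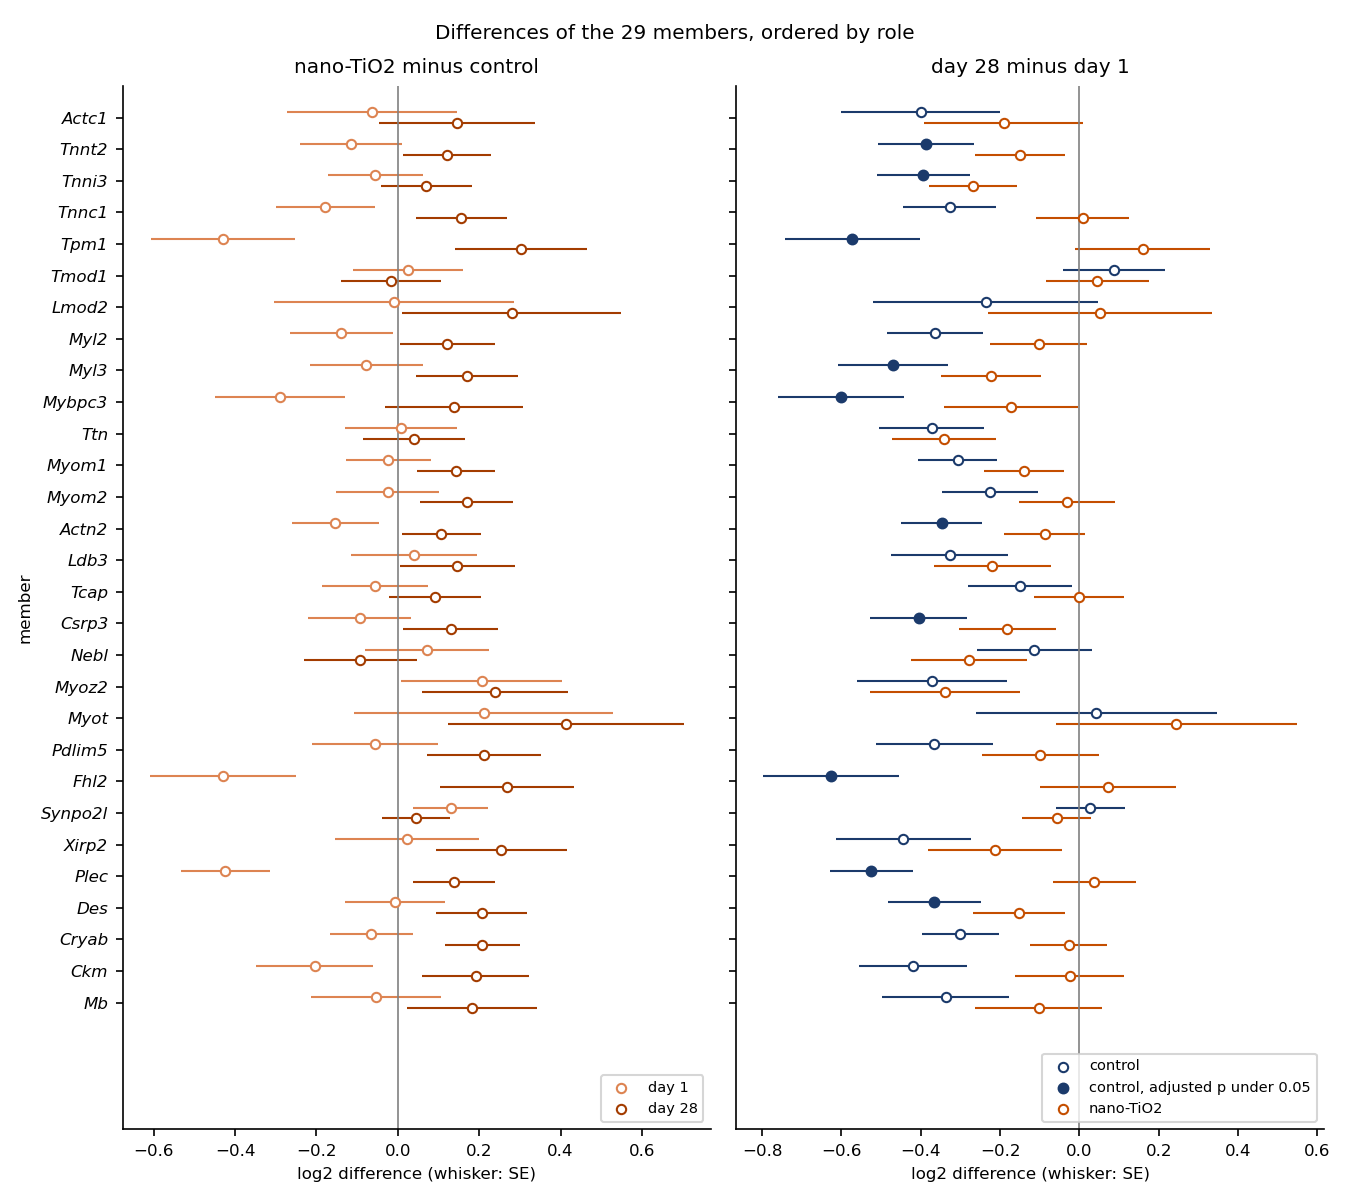
Log2 differences of the 29 measured members with their SE, ordered by role; the left panel shows nano-TiO2 minus control at day 1 and day 28, the right panel day 28 minus day 1 in control and in nano-TiO2 mice. Filled points passed an adjusted p of 0.05. In the right panel 26 of 29 control differences lie below 0 and 10 are filled, while in the left panel 21 of 29 lie below 0 at day 1 and 27 of 29 above 0 at day 28.

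The 10 calls depended on the arrays used and on the normalization. In 3 fits 0 members were called. These had slide as a fixed block, median centring in place of loess, or lacked the 5 arrays with lung or liver transcripts. In that order the median difference was -0.32, -0.11 and -0.25. Over all genes 0%, 0.561% and 0.00645% passed, against 10.4% in the fit above. The last of these fits left out control day 28 replicates 1, 3, 4 and 5. Only replicates 2 and 6 of that group remained in it, so it also compared fewer mice. With slide as a random block 11 members and 10.5% of all genes were called. Without the 3 arrays low in atrial transcripts 9 members and 8.11% of all genes were called, with a member median of -0.32. With the heart channel (Cy5) alone 9 members and 10.1% of all genes were called. Of the 10 genes named above only Plec and Des kept their call there. The same 2 did with scaling between arrays, where 3 members and 10.6% of all genes were called. Leaving out a single array left between 2 and 15 calls: 5, 4 and 4 without control day 1 replicates 1, 2 and 4, and 3, 2, 4 and 2 without control day 28 replicates 1, 2, 4 and 5.

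Among thin filament genes, 3 of 7 fell between day 1 and day 28 controls. Tnnt2 encodes cardiac troponin T, which ties the troponin complex to tropomyosin. Its values were 5.75, 5.56, 6.04 and 6.06 in 4 day 1 controls (1 array had no value), and 5.93, 5.69, 5.62, 5.55 and 5.90 in nano-TiO2 mice at day 1. At day 28 the lowest, median and highest values were 5.30, 5.42 and 5.75 in controls and 5.37, 5.54 and 5.91 in nano-TiO2 mice. The control ranges overlapped, with 4 of 6 day 28 controls below every day 1 control. The difference was -0.39 ± 0.12 (SE, 6 against 4 mice; limma adjusted p = 0.0447), and with Cy5 alone it was -0.072 (adjusted p = 0.711).

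Tnni3 encodes the inhibitory subunit, cardiac troponin I. It measured 8.16, 8.10, 7.79, 8.09 and 8.02 in day 1 controls and 8.12, 7.81, 8.14, 7.83 and 7.99 in nano-TiO2 mice at day 1. In 5 day 28 controls with a value it ran from 7.38 through a median of 7.63 to 7.95, and in nano-TiO2 mice at day 28 from 7.39 through 7.69 to 8.05. Most day 28 mice were low, but 1 control and 2 nano-TiO2 mice of day 28 lay within the range of the day 1 controls. The control difference was -0.39 ± 0.12 (limma adjusted p = 0.0343), and with Cy5 alone it was -0.10 (adjusted p = 0.524).

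Tpm1 encodes alpha-tropomyosin, the coiled coil that covers the myosin-binding sites of actin. Day 1 controls measured 6.65, 6.58, 6.58, 7.22 and 7.21, and nano-TiO2 mice at day 1 measured 6.12, 5.87, 6.68, 6.67 and 6.73. Day 28 controls ran from 5.84 (median 6.34) to 6.55 and nano-TiO2 mice at day 28 from 6.30 (median 6.59) to 6.92. All 6 day 28 controls were below all 5 day 1 controls. The difference was -0.57 ± 0.17, a 1.49-fold lower ratio (limma adjusted p = 0.0335), but it was 0.0056 when both Tpm1 probes were averaged.

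The other 4 thin filament genes did not pass. Actc1, cardiac alpha-actin, measured 6.39, 6.25, 5.50, 6.28 and 6.27 in day 1 controls and 6.37, 6.06, 5.56, 6.06 and 6.32 in nano-TiO2 mice at day 1. Its day 28 values ran from 5.27 (median 5.84) to 6.01 in controls and from 5.32 (median 6.06) to 6.35 in nano-TiO2 mice. Replicate 3, a different mouse in each group, was lowest in both day 1 groups. Among day 1 controls it alone lay within the day 28 range, and the control difference was -0.40 ± 0.20 (limma adjusted p = 0.216). In nano-TiO2 mice other day 1 values also lay within the day 28 range. Tnnc1, the calcium-binding troponin C of heart and slow muscle, measured 6.46, 6.26, 6.38, 6.74 and 6.63 in day 1 controls and 6.49, 6.34, 6.38, 5.98 and 6.39 in nano-TiO2 mice at day 1. In day 28 mice it ran from 6.05 (median 6.08) to 6.53 in controls and from 6.08 (median 6.26) to 6.60 with nano-TiO2. In Tnnc1, 5 of 6 day 28 controls were below every day 1 control, and replicate 6 was not; the difference was -0.33 ± 0.12 (limma adjusted p = 0.0749). Tmod1, which caps thin filaments at their pointed ends, differed by 0.09 ± 0.13, and Lmod2, which lengthens them there, by -0.24 ± 0.28.

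**Figure D2:**
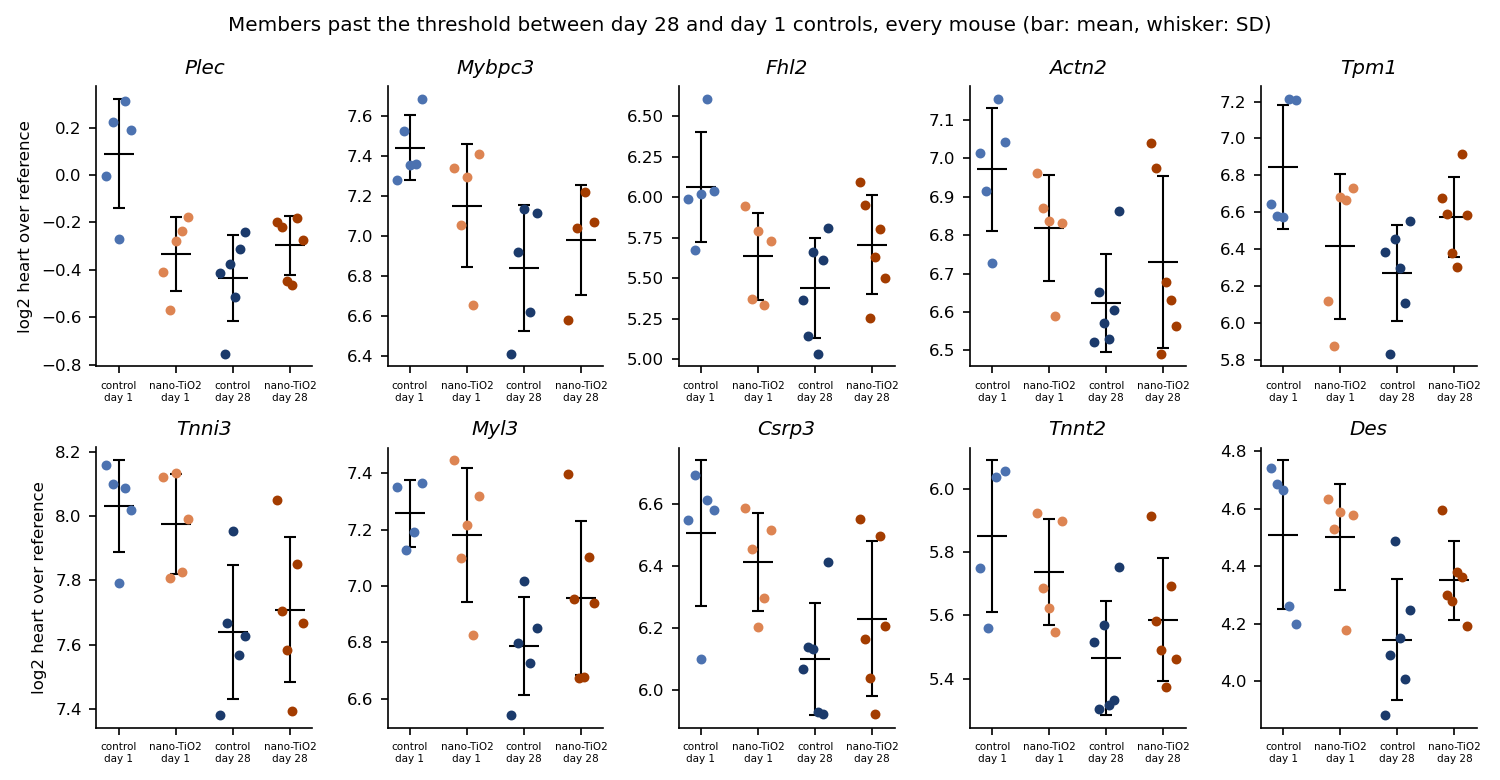
Log2 ratio of heart to reference in every mouse for the 10 members past the threshold between the control groups, in order of their p; points are mice, bars group means and whiskers SD. For Mybpc3, Tpm1 and Myl3 all day 28 controls lie below all day 1 controls; for the other 7 genes the control ranges overlap.

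Of the thick filament genes, 2 of 3 fell. Mybpc3 encodes cardiac myosin-binding protein C, a regulator of cross-bridges. It measured 7.28, 7.52, 7.35, 7.36 and 7.69 in day 1 controls and 7.34, 7.06, 7.29, 6.66 and 7.41 in nano-TiO2 mice at day 1. In 5 day 28 controls with a value the lowest, median and highest were 6.41, 6.92 and 7.13, and in 4 nano-TiO2 mice 6.58, 7.06 and 7.22. All 5 of those day 28 controls were below all day 1 controls. The difference was -0.60 ± 0.16, or 1.52-fold lower (limma adjusted p = 0.0213).

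Myl3, the essential light chain of ventricular and slow muscle myosin, measured 7.35, 7.13, 7.19 and 7.36 in the 4 day 1 controls with a value and 7.45, 7.10, 7.21, 6.82 and 7.32 in nano-TiO2 mice at day 1. On day 28 Myl3 ran from 6.54 (median 6.80) to 7.02 in 5 controls and from 6.67 (median 6.95) to 7.40 in nano-TiO2 mice. The control groups did not overlap, and the difference was -0.47 ± 0.14 (limma adjusted p = 0.0355). Myl2, the regulatory light chain, measured 5.96, 6.38, 5.86, 6.39 and 6.48 in day 1 controls and 6.17, 6.16, 5.91, 5.85 and 6.28 in nano-TiO2 mice at day 1. Its day 28 values were 5.59 to 6.19 in controls (median 5.83) and 5.78 to 6.21 with nano-TiO2 (median 5.96). The control ranges overlapped and Myl2 did not pass (-0.36 ± 0.12, limma adjusted p = 0.0575).

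Neither titin nor the myomesins passed. Ttn, whose product is the giant spring between Z-disc and M-band, measured 7.26, 7.28, 7.11, 6.62 and 7.15 in day 1 controls and 7.25, 7.04, 7.16, 6.90 and 7.11 in nano-TiO2 mice at day 1. Titin values at day 28 ran from 6.45 (median 6.68) to 7.04 in controls and from 6.40 (median 6.71) to 7.09 in nano-TiO2 mice. Both day 28 groups were low on average, and the differences from day 1 were -0.37 ± 0.13 in controls (limma adjusted p = 0.0727) and -0.34 ± 0.13 with nano-TiO2 (adjusted p = 0.905). The M-band proteins myomesin 1 and 2 had control differences of -0.31 ± 0.10 for Myom1 (limma adjusted p = 0.0520) and -0.22 ± 0.12 for Myom2 (adjusted p = 0.254).

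At the Z-disc, 3 of 10 measured genes fell and 8 of 10 were lower by the difference alone. Actn2, sarcomeric alpha-actinin, which crosslinks thin filaments, measured 7.01, 6.92, 6.73, 7.15 and 7.04 in day 1 controls and 6.96, 6.87, 6.84, 6.59 and 6.83 in nano-TiO2 mice at day 1. Its day 28 values were 6.52 to 6.86 in controls (median 6.59) and 6.49 to 7.04 in nano-TiO2 mice (median 6.66). In 5 of 6 day 28 controls Actn2 was below every day 1 control, and the difference was -0.35 ± 0.10 (limma adjusted p = 0.0315). Csrp3, the muscle LIM protein, measured 6.55, 6.69, 6.10, 6.61 and 6.58 in day 1 controls and 6.59, 6.45, 6.20, 6.30 and 6.51 in nano-TiO2 mice at day 1. At day 28 it ran from 5.92 (median 6.10) to 6.41 in controls and from 5.92 (median 6.18) to 6.55 in nano-TiO2 mice. Day 1 control replicate 3 was low and overlapped the day 28 controls. The Csrp3 difference was -0.40 ± 0.12 (limma adjusted p = 0.0362).

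Fhl2, a LIM protein that binds titin and other Z-disc partners, measured 5.99, 5.67, 6.02, 6.61 and 6.04 in day 1 controls and 5.94, 5.37, 5.79, 5.34 and 5.73 in nano-TiO2 mice at day 1. Its day 28 values ran from 5.03 (median 5.49) to 5.81 in controls and from 5.26 (median 5.72) to 6.09 in nano-TiO2 mice. The control ranges overlapped at 1 mouse of day 28, and the control difference of -0.63 ± 0.17 was 1.54-fold (limma adjusted p = 0.0229). Tcap, telethonin, which joins titin molecules at the Z-disc, had no value on 4 arrays. It measured 5.28, 5.54 and 5.09 in 3 day 1 controls and 5.27, 5.23, 5.29, 5.13 and 5.30 in nano-TiO2 mice at day 1. At day 28 the 5 control values were 4.98, 5.53, 5.07, 5.05 and 5.14, and the 5 nano-TiO2 values were 5.51, 5.24, 4.96, 5.28 and 5.22. All Tcap groups overlapped, and the control difference was -0.15 ± 0.13 (limma adjusted p = 0.522).

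The remaining Z-disc genes did not pass between the controls. The differences were -0.33 ± 0.15 for Ldb3 (the PDZ-LIM protein ZASP), -0.37 ± 0.15 for Pdlim5 (another PDZ-LIM protein) and -0.37 ± 0.19 for Myoz2 (calsarcin-1, which binds calcineurin). They were -0.11 ± 0.15 for Nebl (nebulette), 0.04 ± 0.30 for Myot (myotilin) and 0.03 ± 0.09 for Synpo2l, an actin-associated protein. These last 3 are among the 4 genes with a reference signal at background on most arrays.

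Plec encodes plectin, a linker of intermediate filaments to Z-discs, costameres and other junctions in many cell types. It measured -0.0042, 0.22, -0.27, 0.31 and 0.19 in day 1 controls and -0.41, -0.57, -0.28, -0.24 and -0.18 in nano-TiO2 mice at day 1. Day 28 values ran from -0.75 (median -0.39) to -0.24 in controls and from -0.46 (median -0.25) to -0.18 in nano-TiO2 mice. Day 1 controls were high, except replicate 3, which overlapped the other groups. The control difference was -0.52 ± 0.11 (limma adjusted p = 0.00491). Xirp2, an actin-binding protein of intercalated discs, measured 6.06, 6.11, 5.82, 5.39 and 5.52 in day 1 controls and 6.19, 5.97, 5.65, 5.24 and 5.98 in nano-TiO2 mice at day 1. On day 28 Xirp2 ran from 4.96 (median 5.37) to 5.72 in controls and from 5.32 (median 5.59) to 5.79 in nano-TiO2 mice. Xirp2 groups overlapped and the control difference was -0.44 ± 0.17 (limma adjusted p = 0.0968).

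Des encodes desmin, the muscle intermediate filament protein around the Z-disc. It measured 4.74, 4.69, 4.67, 4.26 and 4.20 in day 1 controls and 4.64, 4.53, 4.59, 4.18 and 4.58 in nano-TiO2 mice at day 1. At day 28 it ran from 3.88 (median 4.12) to 4.49 in controls and from 4.19 (median 4.33) to 4.60 in nano-TiO2 mice. Among day 1 controls 3 mice were high and 2 were within the day 28 range, and the control difference was -0.37 ± 0.12 (limma adjusted p = 0.0483). Cryab, the small heat shock protein alpha-B-crystallin, a desmin chaperone, measured 4.82, 4.72, 4.77, 4.88 and 4.77 in day 1 controls and 4.84, 4.72, 4.77, 4.43 and 4.88 in nano-TiO2 mice at day 1. Its day 28 values were 4.23 to 4.78 in controls (median 4.45) and 4.54 to 4.96 in nano-TiO2 mice (median 4.66). In 5 of 6 day 28 controls Cryab was below every day 1 control, and it did not pass (-0.30 ± 0.10, limma adjusted p = 0.0501).

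Of the energy and oxygen genes, Ckm is the muscle creatine kinase at the M-band. It measured 6.14, 5.98, 5.89, 6.22 and 6.19 in day 1 controls and 6.10, 5.96, 5.91, 5.50 and 5.93 in nano-TiO2 mice at day 1. In day 28 mice Ckm ran from 5.39 (median 5.61) to 6.06 in controls and from 5.54 (median 5.87) to 6.38 in nano-TiO2 mice. In 5 of 6 day 28 controls Ckm was below every day 1 control, with a difference of -0.42 ± 0.14 (limma adjusted p = 0.0529). Mb, the oxygen-binding myoglobin, differed by -0.34 ± 0.16 (adjusted p = 0.193).

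Groups of single genes were also compared by whether their ranges met. In controls, all day 28 values were below all day 1 values for 3 of 29 members (Tpm1, Myl3 and Mybpc3), against 2.39% of all genes. In nano-TiO2 mice this held for 0 of 29 members, against 0.477% of all genes.

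At 1 day after instillation, no member differed past the threshold between nano-TiO2 and control mice. By limma 0 of 29 members and 0% of all genes passed, and 3 members (and 8.63% of all genes) had an unadjusted p under 0.05, all 3 lower with nano-TiO2. Plec differed by -0.42 ± 0.11 (SE, 5 against 5 mice; limma adjusted p = 0.478), with 3 of 5 treated mice below every control. Tpm1 differed by -0.43 ± 0.18 and Fhl2 by -0.43 ± 0.18, each with an adjusted p of 0.513. Next by p came Mybpc3 (-0.29 ± 0.16) and Tnnc1 (-0.18 ± 0.12), both of which changed sign with median centring (0.09 and 0.17). For 0 of 29 members did the groups fail to overlap, against 0.426% of all genes in the lower and 1.26% in the higher direction. The median member difference was -0.056 against 0.0138 over all genes, with 21 of 29 lower, but 5 of 29 were lower with median centring, which moved the median of all genes to 0.17. With background fitted on all spots 7 of 29 were lower, and the member median was 0.043 against 0.033 over all genes. The member median was -0.075 without the 3 arrays low in atrial transcripts and -0.053 without the 5 with lung or liver transcripts; 0 members passed in either, while 0.226% of all genes passed in the first and 0% in the second.

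At day 28 no member differed past the threshold either. By limma 0 of 29 members and 0% of all genes passed, and 1 member, Cryab, had an unadjusted p under 0.05, as did 7.58% of all genes. Cryab was higher with nano-TiO2 by 0.21 ± 0.09 (SE, 6 against 6 mice; limma adjusted p = 0.652). The next by p were Tpm1 (0.30 ± 0.16), Des (0.21 ± 0.11, but -0.016 with background fitted on all spots), Fhl2 (0.27 ± 0.16) and Xirp2 (0.25 ± 0.16), with adjusted p between 0.652 and 0.738 for the 5. No treated group lay wholly above or below its control for any member (0.0452% and 0.0774% of all genes did). The median member difference was 0.15 against -0.0077 over all genes, with 27 of 29 higher, and 17 of 29 were higher with median centring. It was 0.092 without the 3 arrays and 0.087 without the 5, with 0 members passing in either. Without the 5, replicates 2 and 6 were the only day 28 controls.

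The day 1 and day 28 controls enter these comparisons too, so the differences from control and the differences between the controls share samples. The nano-TiO2 difference at day 28 minus that at day 1 used all 4 groups. It passed for 0 of 29 members and 0% of all genes by limma, and 3 members (and 14.6% of all genes) had an unadjusted p under 0.05, all 3 higher. They were Plec (0.56 ± 0.15, limma adjusted p = 0.119), Tpm1 (0.73 ± 0.24, 0.165) and Fhl2 (0.70 ± 0.24, 0.185), followed by Ckm (0.40 ± 0.19) and Tnnc1 (0.33 ± 0.16), which both turned negative with median centring (-0.061 and -0.16). The median was 0.23 against -0.0222 over all genes. With median centring it was -0.23 against -0.27 over all genes. Without the 3 arrays it was 0.19 and without the 5 it was 0.16. In either fit 0 members passed, against 0.613% and 0% of all genes. The fit without the 5 again held only replicates 2 and 6 of the day 28 controls.

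Within nano-TiO2 mice, day 28 against day 1, 2 members (and 4.52% of all genes) had an unadjusted p under 0.05 and both were lower, Ttn as given above and Tnni3 (-0.27 ± 0.11). The next by p were Nebl (-0.28 ± 0.15), Myoz2 (-0.34 ± 0.19) and Myl3 (-0.22 ± 0.13), and the limma adjusted p was 0.905 for all 5. With Cy5 alone Tnni3 was at 0.0015 and Myl3 at 0.051, and 11 rather than 22 of 29 members were lower. The member median was -0.11 without the 3 arrays and -0.095 without the 5, with 0 members passing in either. The change over time in nano-TiO2 mice was not shown to differ from that in controls, by the test of the difference above.

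Many markers of other heart tissues were higher in day 28 than in day 1 controls, while most members were lower. To compare them, each gene was centred on its mean over all arrays, and the median of the members and the mean of each marker list were taken per mouse. The member median was 0.20 ± 0.076 (SD, n = 5) in day 1 controls and -0.17 ± 0.15 (n = 6) in day 28 controls. In nano-TiO2 mice it was 0.077 ± 0.15 (n = 5) at day 1 and -0.030 ± 0.16 (n = 6) at day 28. The mean of 11 measured adipocyte markers of 12 ran from -1.62 to -0.87 in day 1 controls, -0.10 to 2.06 in day 28 controls, -1.54 to 1.68 in nano-TiO2 mice at day 1 and -1.58 to 1.39 at day 28. For 11 of 13 atrial markers these ranges were -2.41 to -0.089, 0.51 to 1.08, -2.48 to 0.95 and -2.46 to 0.96, and for 8 of 9 smooth muscle markers -0.99 to -0.54, 0.33 to 0.86, -0.75 to 0.52 and -0.89 to 0.49. Between the controls 6 of 11 adipocyte, 6 of 11 atrial and 6 of 8 smooth muscle markers rose by limma, against 6.92% of all genes. So did 6 of 9 macrophage, 3 of 11 fibroblast, 1 of 9 endothelial, 1 of 8 liver and 0 of 4 lung epithelium markers. Their part in the member differences was not tested.

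**Figure D3:**
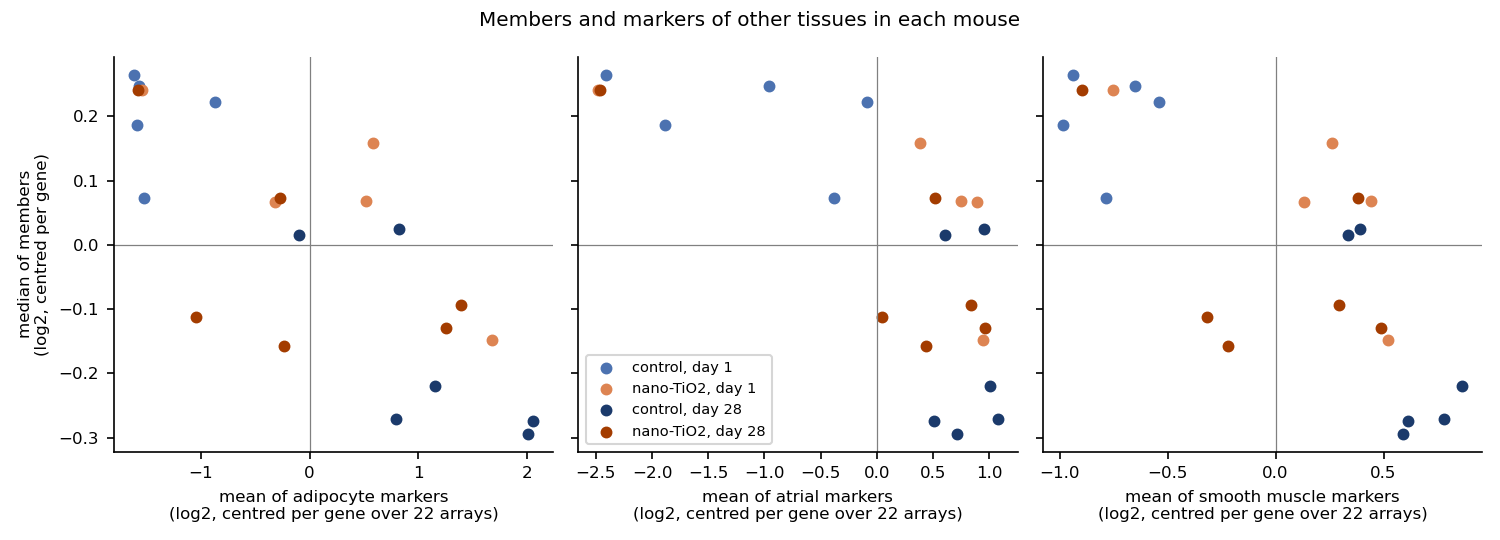
Median of the members against the mean of the adipocyte, atrial and smooth muscle markers in each of the 22 mice, all as log2 ratios centred per gene over the arrays. Day 1 controls have marker means below 0 in all 3 panels and member medians of 0.073 to 0.26; day 28 controls have member medians of -0.29 to 0.024, with atrial and smooth muscle means above 0.

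The 3 arrays low in atrial transcripts, which belong to 3 different groups, had member medians of 0.26, 0.24 and 0.24. The other day 1 controls, replicates 1, 3, 4 and 5, had 0.25, 0.073, 0.19 and 0.22. Their atrial means were -0.96, -0.38, -1.88 and -0.089. Day 28 control replicates 3 and 6 had member medians of 0.024 and 0.015, above the other 4 day 28 controls. Skeletal muscle shares several sarcomere genes with heart, and its markers were checked. Of 19 markers 14 were measured. In the heart channel 9 (Acta1, Atp2a1, Mybpc2, Myh4, Myh8, Myl1, Tnni2, Tnnt1 and Tpm3) were well above background on all 22 arrays, while Myh1 and Mybpc1 were so on 0. The mean of the 14 was -0.048 ± 0.051 in day 1 and -0.045 ± 0.073 in day 28 controls, and 1 of 14 rose. The mean of the lung epithelium markers ran from -0.47 to 2.66 in day 28 controls (median -0.22), with 2.44 and 2.66 in replicates 1 and 5 and values below 0 in the other 4; the day 1 controls had a median of -0.28. That of the liver markers ran from -1.01 to 3.48 (median 0.63), with 3.04 and 3.48 in replicates 1 and 4, against a median of -0.011 at day 1. Of the lung markers, Sftpc, Sftpb and Nkx2-1 were well above background on 0 arrays. Scgb3a1 was so in 6 of 6 day 28 controls, Aqp5 and Napsa in 5, Scgb1a1 in 4, and Sftpa1 and Sftpd in 2; in the 5 day 1 controls Scgb3a1 was so in 4, Scgb1a1 in 1 and the other 4 in 0. Their part was not tested either. The fit without the 5 arrays given above kept only replicates 2 and 6 of the day 28 controls.

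Arrays lay on 9 slides and were scanned on 3 days. The control groups met on 3 slides, with 1 array of each group, and the member median of day 28 minus day 1 was -0.46, -0.039 and -0.54 there. Within the 3 scan days it was -0.18, -0.50 and -0.32. Of the 29 members, 15 were lower on all 3 slides and 22 on all 3 scan days. Myl3 had no value for the difference on slide 6 and could not be counted by slide. Tnnt2, Tcap and Mb also lacked values by slide, and Tcap by scan day. On slide 3, where they had values, they were higher (0.0090, 0.44 and 0.017), and Tcap was higher on scan day 1 (0.21). They were therefore not lower throughout. For nano-TiO2 minus control the member medians by scan day were 0.020, -0.098 and -0.083 at day 1 and -0.011, 0.36 and 0.16 at day 28.

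For 10 members several probes were kept, which allowed a check on single probes. Over all 51 member probes, 42 were lower in day 28 than in day 1 controls, 12 fell and 1 rose at an adjusted p under 0.05 over the probes, while 3.23% of all 19273 probes fell. All 8 Ttn probes were lower, with differences of -0.12 to -0.48, of which 1 not used above (-0.48 ± 0.13) passed at an adjusted p of 0.0212 over the probes by limma, and both Myl3 probes fell (-0.47 ± 0.14 and -0.55 ± 0.15). The probe of Tpm1 used above differed by -0.57 ± 0.17 and its other probe, of the same accession, by 0.58 ± 0.14, so the 2 probes went opposite ways. Averaged over all arrays, the first lay at 6.52 and the second at -1.49 relative to its own reference signal. For Plec the used probe differed by -0.52 ± 0.11 and the other 2 by -0.17 ± 0.09 and -0.11 ± 0.12, neither of which passed. Pdlim5 split as well: 2 probes differed by -0.37 and -0.41, and 3 by 0.11, 0.17 and 0.21, of which that at -0.41 passed. The second Tnni3 probe differed by -0.36 ± 0.15 and did not pass (limma adjusted p = 0.152 over the probes). The second Cryab probe differed by 0.15 ± 0.11 and did not pass.

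**Figure D4:**
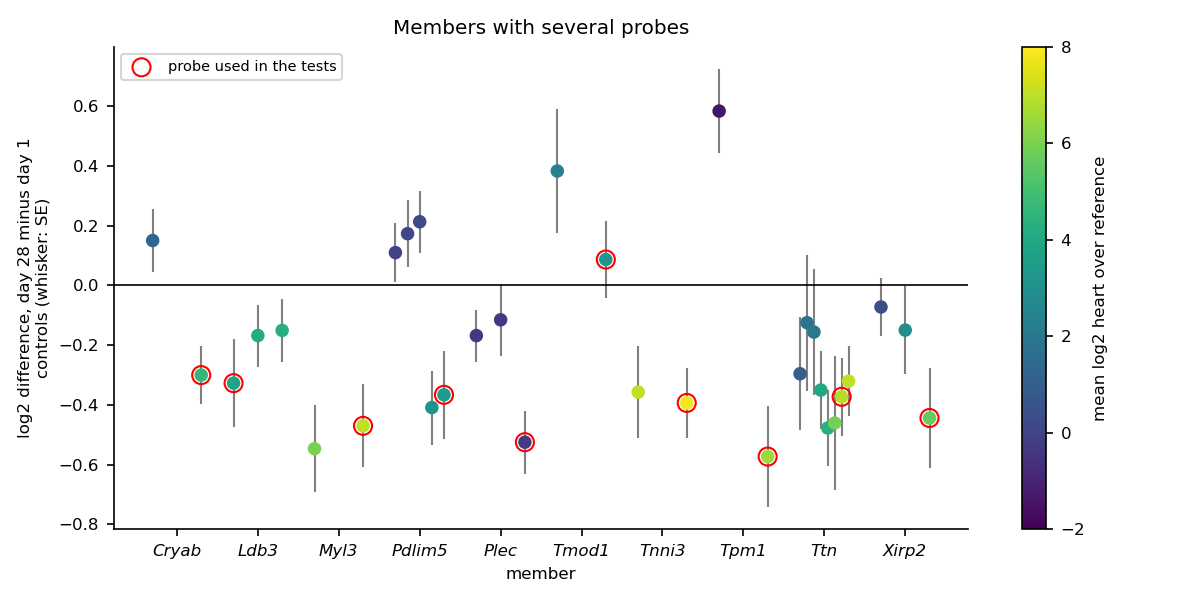
Log2 difference of day 28 minus day 1 controls for each probe of the 10 members with several probes, with the SE and, as colour, the mean log2 ratio of heart to reference. Circles mark the probe used in the tests. The 8 Ttn probes all lie below 0, while the probes of Tpm1, Pdlim5 and Cryab lie on both sides.

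Other genes of the sarcomere and its neighbourhood, from a list of 80 of which 58 were measured, went both ways between the controls. By limma 6 fell and 10 rose, while 3.46% of all genes fell and 6.92% rose. By the difference alone 34 of 58 were lower, as were 7864 of all 15502 genes. The smallest p belonged to Tpm2, beta-tropomyosin (1.45 ± 0.22, adjusted p = 0.00265), Pdlim4, a PDZ-LIM protein (0.81 ± 0.16, 0.00457) and Csrp1, a LIM protein related to Csrp3 (0.70 ± 0.16, 0.0082). All 3 rose. This list shares 3 genes with the atrial and 8 with the skeletal muscle markers. In the other 4 contrasts 0 of these 58 genes and 0% of all genes passed by limma. At an unadjusted p under 0.05 were 9 (day 1), 7 (day 28), 2 (nano-TiO2 over time) and 17 (difference of the effects). Over all genes the shares at that p were 8.63%, 7.58%, 4.52% and 14.6%. At day 1 Tpm2 (0.87 ± 0.23), Tnni1, slow skeletal troponin I (0.43 ± 0.12) and Capzb, an actin-capping subunit (-0.19 ± 0.08) had the smallest p. At day 28 these were Csrp1 (-0.54 ± 0.15), Tpm2 (-0.66 ± 0.21) and the small heat shock protein Hspb6 (0.38 ± 0.15). For the nano-TiO2 mice over time they were Hspb2 (-0.21 ± 0.10), Mybpc2 (-0.31 ± 0.15) and Trim54 (-0.26 ± 0.14), and for the difference of the effects Tpm2 (-1.53 ± 0.32, adjusted p = 0.0727), Actn4 (-0.58 ± 0.18) and Tnni1 (-0.52 ± 0.16).

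Within groups the members varied together to differing degrees. After removing group means, the 406 pairs of members had a median Pearson r of 0.35 over up to 22 mice, from -0.72 (Nebl with Actc1) to 0.91 (Myl2 with Tnnt2), and 324 were positive. These r share the array of each mouse and its normalization and are given without a test. Against the median of the other members r was highest for Myl3 (0.86), Myom1 (0.81) and Cryab (0.79). It was lowest for Nebl (-0.22), Synpo2l (-0.13), Tmod1 (-0.0052) and Lmod2 (0.08).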

How the data were processed

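Heart RNA of 22 mice was measured on 2-colour Agilent arrays, 1 mouse per array. The deposited scanner files hold median intensity values per spot and channel, with a local background, as raw scanner output. Each also carries a log10 ratio that, per the file headers, Agilent Feature Extraction 10.7.3.1 made with background subtraction and dye normalization; the submitters' processing notes give 9.5.3.1. Log2 ratios make up the authors' deposited series matrix, whose making is not given in the sources used here. It correlated at r = 0.992 to 0.998 with loess ratios made without background subtraction.

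From the median intensities, background was corrected with normexp (offset 50, fitted without spots of uneven background) and arrays were normalized with loess. Control spots had weight 0, and spots flagged as uneven or outliers (0.299%) were left out, which leaves gaps for 6 members. A probe was kept if its Cy5 signal was well above background on 5 or more of the 22 arrays (19273 probes), and 23374 probes were matched to a symbol. A group-means model over all arrays was fitted with limma 3.58.1 (R 4.3.3), p was adjusted by Benjamini-Hochberg over 15502 genes, and the code was tested on simulated data. Files were read with data.table and figures drawn with Python 3.11.15 and matplotlib 3.10.9. Nothing in the labels pairs mice across groups. With arrays, their number limits the precision.

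Members and lists were chosen with earlier results of these data known. Named were members past the threshold or, where fewer than 5 passed, the 5 with the smallest p. Alternatives were other background corrections, normalizations, probe filters and summaries, the deposited ratios, Cy5 alone, eBayes with trend, array weights, slide or scan day as a block, only the compared groups, and leaving out each array; 2 sets of arrays were left out after the data were seen.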

Additional observations from a re-analysis of the deposited data

Results flagged for a closer look

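In 8 of 120 group ranges tested, the extreme mouse stood apart by Dixon's gap ratio, the distance to its neighbour divided by the range. Chance gives about 1 in 20, so 8 is near the number that chance gives. The ranges share mice and are not independent. Day 1 control replicate 3 was lowest for Actc1 (5.50, next 6.25; ratio 0.843) and for Csrp3 (6.10, next 6.55; 0.753), and day 1 control replicate 4 was lowest for Ttn (6.62, next 7.11; 0.749). Nano-TiO2 day 1 replicate 4 was lowest for Tnnc1 (5.98, next 6.34; 0.711), Myom2 (5.40, next 5.72; 0.743) and Des (4.18, next 4.53; 0.770). Among day 28 controls, replicate 6 was highest for Tnnc1 (6.53, next 6.20; 0.679) and replicate 3 for Tcap (5.53, next 5.14; 0.713). Adipocyte markers had a mean of 1.68 in nano-TiO2 day 1 replicate 4, the highest of its group, and its member median was -0.15; their part was not tested.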

How the results depend on the processing

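Between the controls the count of members that fell, 10 as reported, became 6 with plain background subtraction, 1 with normexp fitted on all spots, 0 with median centring, 19 with the scanner log ratios, 3 with scaling between arrays, 4 without the filter on dim probes, 5 with trend and robust eBayes, 16 with array weights, 0 with slide as a fixed block and 0 without the arrays holding lung or liver transcripts. Over all genes 10.4% passed as reported. In the order above the shares were 9.88%, 0.503%, 0.561%, 24.9%, 10.6%, 3.7%, 9.56%, 17.3%, 0% and 0.00645%. The count of members stayed between 7 and 14 in the other 9 alternatives, where 8.11% to 13.7% of all genes passed. It ran from 2 to 15 when 1 array was left out. A like count did not mean the same genes: of the 10 named, 2 kept their call with Cy5 alone. With slide as a fixed block 0 genes of the whole table passed, and without the arrays holding lung or liver transcripts 1 did. That last fit had only replicates 2 and 6 as day 28 controls. With slide as a random block 11 members and 10.5% of all genes passed. The member median for this contrast kept its sign in all alternatives, with -0.11 under median centring, where all genes had a median of 0.13. Other member medians that moved beyond the spread were 0.24 (day 1, median centring), -0.35, -0.28 and 0.051 (nano-TiO2 over time; normexp on all spots, median centring, Cy5 alone) and -0.014, -0.23 and 0.42 (difference of the effects; normexp on all spots, median centring, scaling). The day 1 median also changed sign with normexp on all spots (0.043), within the spread. Leaving out 1 array gave medians of -0.41 to -0.32 between controls, -0.12 to 0.0098 at day 1, 0.092 to 0.19 at day 28, -0.16 to -0.071 for nano-TiO2 over time and 0.16 to 0.28 for the difference of the effects. Signs turned for Des at day 28 (-0.016) and Ckm in the difference of the effects (-0.011) with normexp on all spots. They turned for Mybpc3 (0.088) and Tnnc1 (0.17) at day 1 and for Ckm (-0.061) and Tnnc1 (-0.16) in the difference of the effects with median centring. They also turned for Tnni3 (0.0015) and Myl3 (0.051) in nano-TiO2 mice over time with Cy5 alone, and for Tpm1 between controls (0.0056) with the mean of its probes. For nano-TiO2 against control 0 members passed in any alternative. The causes were not tested. Signal over background limits Lmod2, Myot, Nebl and Synpo2l.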
